A study of Mus musculus with 12 samples.

Results

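The 10 genes described here handle zinc, copper or manganese in the liver: the metallothioneins Mt1 and Mt2, the zinc-sensing factor Mtf1, the exporters Slc30a1 and Slc30a10, the importers Slc39a4, Slc39a8 and Slc39a14, and the copper genes Atp7b and Cp. They were followed by every probe set whose platform annotation names 1 of these genes and no other, which gave 30 of 45101 probe sets on the array. All 10 genes were among the 8338 that could be tested, of 18193 that have their own probe set. Each gene is represented below by its brightest probe set over the 12 arrays. Of the 30 probe sets, 22 passed the filter on low signal (at least 3 arrays above a log2 value of 5) and 8 did not.

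Liver RNA came from 12 male mice, 9 weeks old, with 3 mice and 1 array each in 4 groups. CKO mice were Albumin-Cre:Keap1(flox/-) on a C57Bl/6J background, and their genetic controls, called WT here after the labels, were Alb-Cre:Keap1(flox/+), so both genotypes carry Cre and 1 floxed allele. Both genotypes received a single gavage of vehicle (DMSO, Cremophor-EL and PBS) or of 30 umol/kg CDDO-Im, a synthetic oleanane triterpenoid known to activate Nrf2, and were killed after 6 h. Albumin-Cre acts in hepatocytes, so the other liver cells of CKO mice keep the floxed allele, and all cells of these mice lack the second copy. The study set genetic beside pharmacologic activation of Nrf2. The labels number the mice within a group, and the p-values below measure the spread between these arrays.

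Metallothioneins are small cysteine-rich proteins that bind zinc and copper, and their genes are switched on by metals through MTF-1, a zinc-finger factor that binds metal response elements. Zinc leaves the cytosol through SLC30 transporters and enters it through SLC39 transporters. Copper leaves hepatocytes through ATP7B, which also loads it onto ceruloplasmin for secretion into blood. Keap1 holds the transcription factor Nrf2 in check, and Nrf2 binds antioxidant response elements near its target genes.

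Mt2 and Mt1 lie in tandem on chromosome 8 of the mouse genome (GRCm38.p6), Mt2 at 94172618 to 94173567 and Mt1 at 94178883 to 94180327, with 5315 bases between them. The promoter of Mt2 is shown because Mt2 had the larger change of the 2 genes. It is the stretch of 250 bases directly before the annotated start, chr8:94172368-94172617 on the plus strand, from the RefSeq promoter table of GRCm38.p6. Capitals mark the 3 matches to the core of the metal response element, searched as TGCACNC or TGCGCNC on both strands.

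Mt2: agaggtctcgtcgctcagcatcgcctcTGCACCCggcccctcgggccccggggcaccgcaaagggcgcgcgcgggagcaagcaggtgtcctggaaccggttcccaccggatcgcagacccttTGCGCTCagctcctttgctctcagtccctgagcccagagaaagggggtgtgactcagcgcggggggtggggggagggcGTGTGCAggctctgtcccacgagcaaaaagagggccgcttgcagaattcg

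The matches lie 223 to 217, 128 to 122 and 50 to 44 bases before the start. Between them, 79 to 71 bases before the start, lies a match to the core of the antioxidant response element (TGACNNNGC, searched on both strands), which reads TGACTCAGC. At least 1 metal response core was found in 21.4% of the 32851 promoters of the table in 250 bases, and at least 3 in 1.26%. The antioxidant core was found in 10.2%.

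For 3 other genes, windows of at most 30 bases that hold matches are shown, to compare the transporter genes with the metallothioneins. Capitals mark the metal response cores, and where 2 cores overlap on opposite strands the capitals run together. The Mt1 window is chr8:94179089-94179118, at the first bases after the start given in the table. The Slc30a1 window is chr1:191906726-191906755 and the Slc30a10 window chr1:185454603-185454632, both plus strand and before the start.

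Mt1: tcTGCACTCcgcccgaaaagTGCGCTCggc

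Slc30a1: aacgggggttccGAGTGCAaagcaaagttt

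Slc30a10: acgtaggcagcgGTGCGCACacccactaca

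Of the 10 genes, 8 had an entry in the promoter table. In the 250 bases before the start, Mt1 held 1 metal response core and no antioxidant core, Slc30a1 held 1 of each, Slc30a10 held 3 metal response cores of which 2 overlap, and Atp7b held 1. Slc39a8 has 2 starts in the table, with 1 antioxidant core before the first and 1 metal response core before the other. Neither core was found before the starts of Mtf1 and Cp. When the whole entry of each gene was searched, with 50 bases after the start added, Mt1 held 3 metal response cores and Mt2 held 4, against at least 3 in 1.97% and at least 4 in 0.517% of all promoters. The table's start of Mt1 lies within the annotated gene, so 206 of the 250 bases searched were inside it, as were 84 for Slc30a1, 250 before each start of Slc39a8, and 121 and 250 before the starts of Cp. Sequence around other starts was not searched. A match is a description of letters and not of binding.

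Signals were deposited on the log2 scale after GCRMA, and their lowest value was 2.22. Array medians lay between 2.32 and 2.34, and the lowest correlation between replicate arrays was 0.996. The targeted gene was read by 2 Keap1 probe sets. One of them lay between 7.92 and 8.89 in the 6 WT livers and between 2.74 and 3.31 in the 6 CKO livers. The other, brighter over all 12 arrays, differed far less: it averaged 7.07 in WT vehicle and 6.39 in CKO vehicle, a Keap1 change of -0.68 ± 0.20 that did not pass (limma, adjusted p = 0.0712), and which of them lies in the deleted part was not determined. Nqo1, a quinone reductase and reference target of Nrf2, averaged 6.22 in vehicle-treated WT livers and 9.67 with the drug, against 11.08 and 10.85 in CKO livers. The 9 hepatocyte markers with a probe set had means from 6.84 to 16.70, while neutrophil and lymphocyte markers had means under 5. In whole liver, fewer cells of a type and less RNA per cell cannot be told apart.

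Mt1 and Mt2 were low in untreated control livers and high in all livers with Keap1 deleted, CDDO-Im given, or both. Mt1 rose 29.6-fold with deletion and 20-fold with the drug in WT mice, and Mt2 rose 61.3-fold and 37.6-fold. The drug added no detected rise where Keap1 was already deleted. Slc39a4, a zinc importer, was the other of the 10 genes that rose with deletion. No importer, exporter or copper gene among the 10 passed the test for the drug in either genotype.

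For Mt1, the WT vehicle livers read 9.62, 7.75 and 8.75, the WT CDDO-Im livers 13.08, 12.56 and 13.44, the CKO vehicle livers 13.93, 13.12 and 13.72, and the CKO CDDO-Im livers 14.53, 13.37 and 13.75. Every WT vehicle liver was below every liver of the other 3 groups, which overlapped one another. With deletion under vehicle, Mt1 was 4.89 ± 0.46 (SE) higher on the log2 scale, a 29.6-fold rise (95% interval 14.7 to 59.9; limma, adjusted p = 3.18e-04). With CDDO-Im in WT mice it was 4.32 ± 0.46 higher, a 20-fold rise (9.92 to 40.5; limma, adjusted p = 9.34e-04).

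For Mt2, the WT vehicle livers read 7.63, 5.99 and 7.88, the WT CDDO-Im livers 12.73, 11.37 and 13.09, the CKO vehicle livers 13.62, 12.76 and 12.93, and the CKO CDDO-Im livers 13.71, 13.23 and 14.19. The WT vehicle livers again stood below all others, and the CKO CDDO-Im livers all read above the WT CDDO-Im livers. Deletion under vehicle raised Mt2 by 5.94 ± 0.55, or 61.3-fold (26.3 to 143; limma, adjusted p = 3.16e-04). CDDO-Im in WT mice raised it by 5.23 ± 0.55, or 37.6-fold (16.1 to 87.7; limma, adjusted p = 9.34e-04). Ordered by log2 change among the 8338 genes, Mt2 ranked 3 and Mt1 ranked 7 with deletion, and Mt2 ranked 2 and Mt1 ranked 3 with the drug in WT mice.

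**Figure D1:**
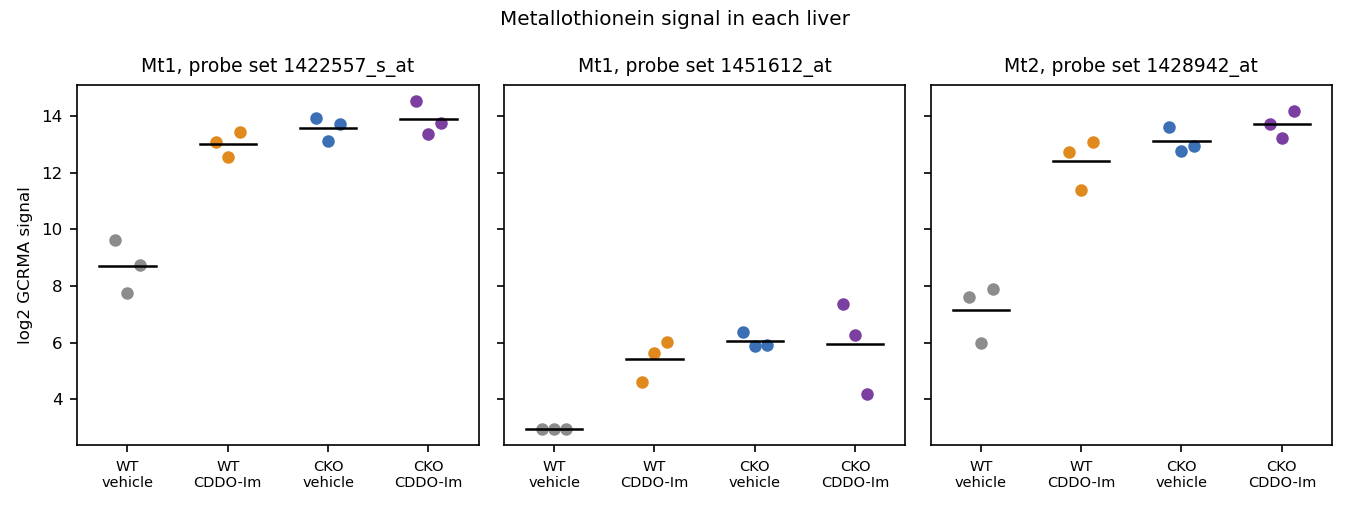
Log2 signal (vertical axis) of Mt1 and Mt2 in each of the 12 livers (points) by group, with bars at the group means. The WT vehicle livers sit between 7.75 and 9.62 for Mt1 and between 5.99 and 7.88 for Mt2, below all livers of the other groups.

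Within CKO mice the drug changed Mt1 by 0.29 (interval -0.72 to 1.31) and Mt2 by 0.61 (-0.61 to 1.83), neither of which passed the test (limma, adjusted p = 0.88 and 0.761). The test of the difference between the 2 drug responses gave -4.03 ± 0.65 for Mt1 (limma, adjusted p = 0.0411) and -4.62 ± 0.78 for Mt2 (adjusted p = 0.0492), so the response was smaller in CKO mice. These calls were lost when most single livers were left out. Mt1 passed in 2 of the 12 such fits, those without WT vehicle replicate 1 or 2, and Mt2 in 3, those without WT vehicle replicate 2 or 3 or WT CDDO-Im replicate 3. The adjusted p reached 0.118 for Mt1 and 0.135 for Mt2. Nqo1 gave -3.68 for the same difference (limma, adjusted p = 0.0187), a call kept in 4 of 12 such fits (adjusted p up to 0.0725).

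In drug-treated mice, deletion changed Mt1 by 0.86 (interval -0.16 to 1.87; limma, adjusted p = 0.378) and Mt2 by 1.32 (0.09 to 2.54; adjusted p = 0.265). Set directly against each other, CKO vehicle and WT CDDO-Im differed by 0.56 (interval -0.45 to 1.58) for Mt1 and by 0.71 (-0.52 to 1.93) for Mt2, and neither passed the test. Without WT CDDO-Im replicate 3 these differences were 0.33 for Mt1 and 0.19 for Mt2. These intervals do not show that the groups are alike. Nqo1 was 1.42 higher in CKO vehicle than in WT CDDO-Im (limma, adjusted p = 0.0497), a call kept in 2 of 12 fits that left out 1 liver. That value lies within the intervals of both metallothioneins, and whether Nqo1 differed from them was not tested. For both metallothioneins the group means rose in the order WT vehicle, WT CDDO-Im, CKO vehicle and CKO CDDO-Im, and of the neighbouring steps in that order only the first passed the test.

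Within groups the 2 genes varied together. In WT vehicle mice, Mt1 spanned 1.87 log2 units and Mt2 1.89, and the same liver was lowest for both genes in 4 of 4 groups. The full order of the 3 livers was the same in 2 of 4. Over the 12 arrays, the correlation of Mt1 with Mt2 was r = 0.985, the highest for either gene among the named genes tested. Next for Mt1 were Pla2g7 (0.968), Gsta2 (0.958), Degs1 (0.95) and Slc11a1 (0.946). Next for Mt2 were Pla2g7 (0.974), Megf9 (0.972), Gstm3 (0.959) and Gsta2 (0.959). Gsta2 and Gstm3 are glutathione S-transferases. These values describe likeness over arrays that share 4 group means, and the difference between WT vehicle and the rest enters all of them.

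Markers of other cell types were summed over each list on the linear scale and are given as log2. The Kupffer cell and macrophage sum ran from 12.62 to 13.47 in WT livers with vehicle and 13.05 to 13.25 with the drug, and from 12.94 to 13.49 and 12.97 to 13.57 in CKO livers. The erythroid sum ran from 11.03 to 11.40, 10.85 to 11.33, 9.32 to 11.19 and 9.83 to 10.46 in the same groups, and its lowest livers were CKO livers. This sum rests on Alas2 alone, since Hba-a1, the only other erythroid marker with a probe set, was at 2.22 in all livers. Alas2 changed by -0.89 ± 0.38 with deletion under vehicle, which did not pass (limma, adjusted p = 0.202). The endothelial sum ran from 11.37 to 11.65 and 11.30 to 11.65 in WT livers and from 11.41 to 11.49 and 11.40 to 11.97 in CKO livers. The hepatocyte sum lay between 18.74 and 18.83 in all livers. Of the single markers, some differed between the same groups as the metallothioneins. Lyve1, of endothelium, averaged 5.76 in WT vehicle, 8.33 in WT CDDO-Im, 7.99 in CKO vehicle and 9.68 in CKO CDDO-Im, and rose by 2.24 ± 0.46 with deletion (limma, adjusted p = 0.0176) and by 2.57 ± 0.46 with the drug in WT mice (adjusted p = 0.015). The other endothelial markers tested were not called. With deletion Stab2 changed by -0.18, Clec4g by -0.21, Kdr by -0.30 and Cdh5 by -0.04. With the drug in WT mice these changes were -0.53, 0.08, -0.53 and 0.10, in that order. Marco, a macrophage receptor, averaged 4.86 in WT vehicle, 6.15 in WT CDDO-Im, 7.17 in CKO vehicle and 7.14 in CKO CDDO-Im, and with deletion under vehicle its CKO livers all read above its WT livers. With deletion the other macrophage markers tested were not called, with changes from -0.04 for Csf1r to 0.56 for Cd5l. The hepatocyte enzyme Tdo2 rose by 0.34 ± 0.07 with deletion (limma, adjusted p = 0.0182) and with the drug in WT mice (adjusted p = 0.0294). No other hepatocyte marker tested was called in either. The stellate marker Reln fell with deletion, with a change of -0.51 ± 0.12 (adjusted p = 0.0348). Dcn and Lrat, the other stellate markers tested, changed by 0.01 and 0.17 with deletion and were not called. The part of these differences in the values of the 10 genes was not tested.

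The second Mt1 probe set was dimmer. It read 2.97 in each WT vehicle liver and 4.60 to 6.04 with the drug, and in CKO livers 5.89 to 6.39 with vehicle and 4.20 to 7.37 with the drug. Its group means were 2.97 in WT vehicle, 5.42 in WT CDDO-Im, 6.06 in CKO vehicle and 5.95 in CKO CDDO-Im. It passed the filter only through the groups where it is high, so its differences are a description, with no test, and no linear fold is given.

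Mtf1 encodes the factor that switches on metallothionein genes when zinc is high. Its brightest probe set lay between 7.46 and 7.85 in all 12 livers, and 5 of the 12 arrays shared 1 value within 0.001. WT CDDO-Im (7.54, 7.46 and 7.60) read below WT vehicle (7.67, 7.85 and 7.61) and below CKO vehicle (7.61, 7.61 and 7.69), at the closest by 7.60 against 7.61. The difference from WT vehicle was -0.18 ± 0.08 (limma, adjusted p = 0.243). Deletion changed it by -0.07 ± 0.08 (adjusted p = 0.621). Of the 5 Mtf1 probe sets, 2 passed the filter, and the other of these lay between 6.25 and 6.75, with 1 value shared by 8 of the 12 arrays. With values repeated in this way, the narrow ranges do not show that Mtf1 RNA was equal in the groups.

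Slc30a1 encodes ZnT1, the zinc exporter of the plasma membrane. WT livers read 11.11, 11.54 and 11.48 with vehicle and 10.57, 10.83 and 10.15 with the drug, and CKO livers 11.18, 11.54 and 10.96 with vehicle and 10.78, 10.50 and 10.09 with the drug. All 6 drug-treated livers read below all 6 vehicle livers. Within each genotype alone it did not pass the test: CDDO-Im changed it by -0.86 ± 0.23 in WT mice (limma, adjusted p = 0.0659) and by -0.77 ± 0.23 in CKO mice (adjusted p = 0.42). The difference between those responses was 0.09 (interval -0.62 to 0.80; limma, adjusted p = 0.955), and deletion changed it by -0.15 ± 0.23 under vehicle (adjusted p = 0.745) and by -0.06 under the drug (adjusted p = 0.925). CKO vehicle livers all read above WT CDDO-Im livers, by 0.71 ± 0.23 (adjusted p = 0.101). The second, dimmer Slc30a1 probe set was called in that comparison (0.63 ± 0.12; limma over probe sets, adjusted p = 0.0223), among 3.6% of probe sets. With deletion it had the opposite sign to the brightest, 0.24 ± 0.12 under vehicle, without overlap, and 0.25 ± 0.12 under the drug. Neither was called (limma over probe sets, adjusted p = 0.271 and 0.342).

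Slc30a10 encodes a manganese exporter of the same family. WT livers read 10.02, 10.29 and 10.94 with vehicle and 9.08, 9.45 and 8.68 with the drug, and CKO livers 9.96, 10.30 and 9.26 with vehicle and 9.40, 8.72 and 9.32 with the drug. The WT groups did not overlap and the CKO groups did. CDDO-Im in WT mice changed it by -1.34 ± 0.32 (limma, adjusted p = 0.0504), and in CKO mice by -0.70 ± 0.32 (adjusted p = 0.545); these responses differed by 0.65 ± 0.46 (adjusted p = 0.678). Deletion changed it by -0.57 ± 0.32 under vehicle (adjusted p = 0.336) and by 0.07 under the drug (adjusted p = 0.936), and CKO vehicle was 0.77 ± 0.32 above WT CDDO-Im (adjusted p = 0.189). Tested over 14684 probe sets instead of genes, both of its probe sets passed and were lower in WT CDDO-Im, with changes of -1.34 (adjusted p = 0.0493) and -1.44 ± 0.31 (adjusted p = 0.0327), among 3.88% of probe sets called.

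After these values were seen, the drug's effect averaged over both genotypes was added as a further comparison, so its p-values are not independent of that choice. In it, Slc30a1 was lower, with a change of -0.81 ± 0.16 (limma, adjusted p = 0.0289), as was Slc30a10, with -1.02 ± 0.23 (adjusted p = 0.0475), among 2.46% of all genes called and 1.26% lower. Groups of 6 that did not overlap were seen for 1.52% of genes. With single livers left out, Slc30a1 passed in 4 of 12 fits and Slc30a10 in 2 of 12, with adjusted p up to 0.0703 and 0.11. The changes themselves stayed between -0.89 and -0.72 for Slc30a1 and between -1.16 and -0.89 for Slc30a10. The second probe sets read -0.38 for Slc30a1 (limma over probe sets, adjusted p = 0.0467) and -1.17 for Slc30a10 (adjusted p = 0.0249).

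**Figure D2:**
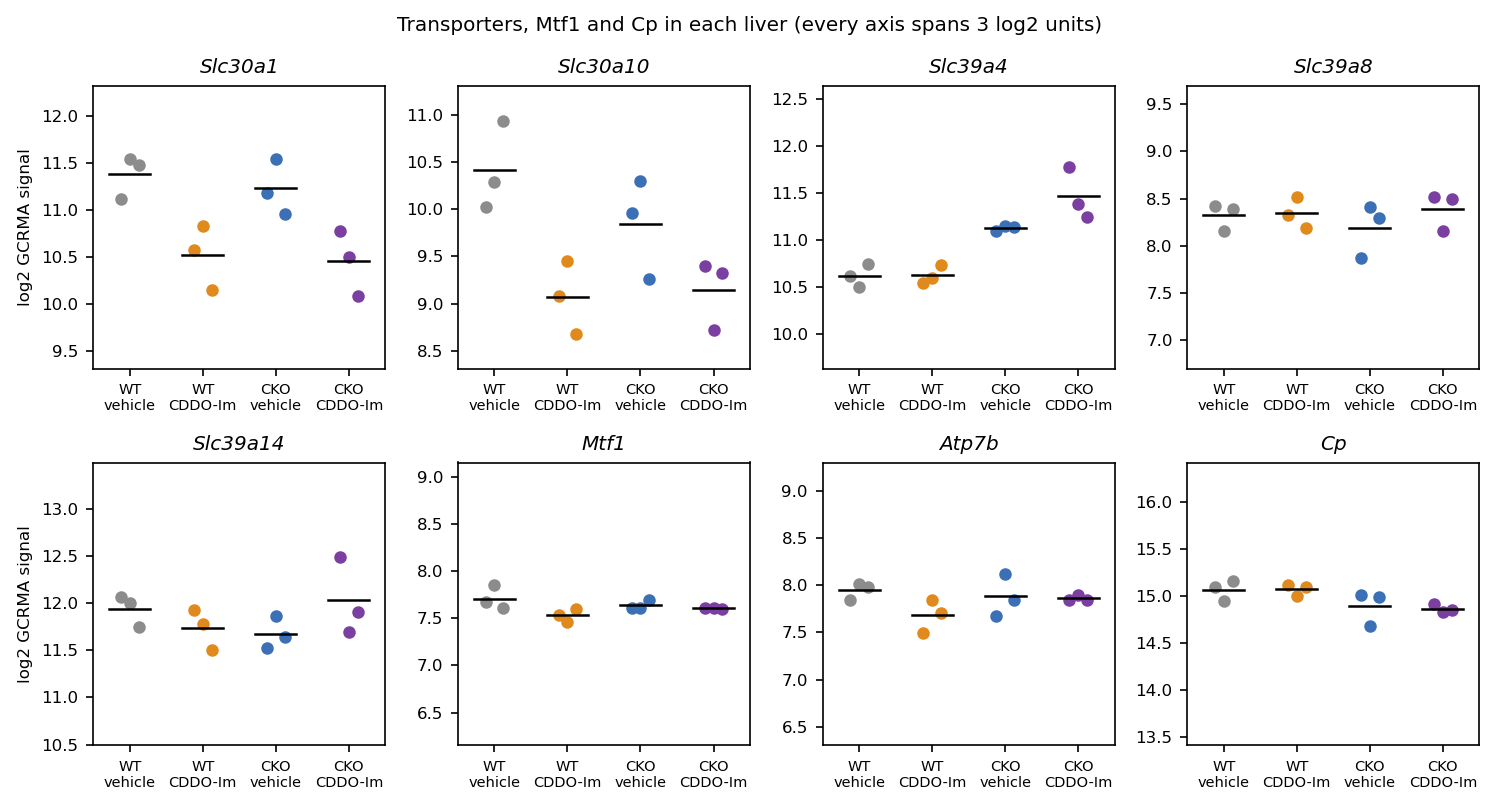
Log2 signal (vertical axes, each spanning 3 log2 units) of the other 8 genes in each of the 12 livers (points) by group, with bars at the group means. For Slc30a1 the drug-treated livers lie at 10.83 or below and the vehicle livers at 10.96 or above, and for Slc39a4 the CKO livers lie at 11.09 or above and the WT livers at 10.74 or below.

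Slc39a4 encodes ZIP4, a zinc importer best known from the intestine. WT livers read 10.62, 10.50 and 10.74 with vehicle and 10.54, 10.60 and 10.73 with the drug, and CKO livers 11.09, 11.15 and 11.14 with vehicle and 11.77, 11.38 and 11.24 with the drug. All 6 CKO livers read above all 6 WT livers, and the WT groups overlapped. Deletion raised it by 0.51 ± 0.13 under vehicle, or 1.42-fold (limma, adjusted p = 0.0402), and by 0.84 ± 0.13 under CDDO-Im, or 1.79-fold (adjusted p = 0.0139). The first call was lost in 9 of 12 fits that left out 1 liver (adjusted p up to 0.117) and the other without WT CDDO-Im replicate 3 (adjusted p = 0.063).

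In WT mice CDDO-Im changed Slc39a4 by 0.00 ± 0.13, with an interval from -0.28 to 0.28. In CKO mice it was 0.34 higher with the drug, without overlap, and did not pass (limma, adjusted p = 0.494); without CKO CDDO-Im replicate 2 the Slc39a4 difference was 0.18. The 2 drug responses differed by 0.33 ± 0.18 (limma, adjusted p = 0.562). CKO vehicle was 0.50 above WT CDDO-Im (adjusted p = 0.052). Averaged over treatments, a comparison also added after the values were seen, deletion raised Slc39a4 by 0.67 ± 0.09, or 1.59-fold (1.39 to 1.83; limma, adjusted p = 0.0019), among 10.6% of genes called. Groups of 6 did not overlap for 4.87% of genes. This call held in all 12 fits that left out 1 liver. Of the enterocyte markers, Vil1 was at 2.29 and Lct and Alpi at 2.22, while Fabp2, which hepatocytes share, was at 11.29.

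Slc39a8 (ZIP8) and Slc39a14 (ZIP14) import zinc, iron and manganese, and ZIP14 is the main such importer that hepatocytes raise in inflammation. Slc39a8 lay between 7.87 and 8.52, and its changes in the 4 simple comparisons ran from -0.12 to 0.20, with all groups overlapping. For Slc39a14, WT livers ran from 11.75 to 12.07 with vehicle and read 11.93, 11.78 and 11.50 with the drug, and CKO livers read 11.52, 11.86 and 11.64 with vehicle and 12.49, 11.69 and 11.91 with the drug. The groups overlapped, and the highest value was CKO CDDO-Im replicate 2. Deletion under vehicle changed it by -0.27 ± 0.20 (limma, adjusted p = 0.467) and CDDO-Im in CKO mice by 0.36 ± 0.20 (adjusted p = 0.604).

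All 4 Slc39a14 probe sets passed the filter, and each read highest in CKO CDDO-Im replicate 2. In the dimmest, the WT CDDO-Im livers (5.94, 5.98 and 5.81) read below all WT vehicle and all CKO CDDO-Im livers. Its changes were -0.39 ± 0.21 with the drug in WT mice and 0.62 ± 0.21 with deletion under the drug. Neither was called (limma over probe sets, adjusted p = 0.34 and 0.194). The genes most like Slc39a14 over the 12 arrays were Dazap2 (r = 0.909), Gdap10 (0.899), Dcaf7 (0.885), Galnt2 (0.88) and Rap1b (0.867). The group means of all 5 varied little, for Dazap2 between 11.78 and 11.91.

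Atp7b, the copper-transporting ATPase lost in Wilson disease, lay between 7.49 and 8.12, and 5 of the 12 arrays shared 1 value within 0.001. Its largest simple change was -0.26 ± 0.12 with CDDO-Im in WT mice (limma, adjusted p = 0.257). Cp, ceruloplasmin, lay between 14.68 and 15.16. Deletion changed it by -0.18 ± 0.10 under vehicle (adjusted p = 0.317) and by -0.21 ± 0.10 under CDDO-Im (adjusted p = 0.316), and the drug by -0.00 ± 0.10 in WT mice (adjusted p = 1). Every CKO CDDO-Im liver (14.92, 14.83 and 14.85) read below every WT CDDO-Im liver (15.12, 15.00 and 15.10). Of the 8 Cp probe sets, 5 passed the filter and 3 did not, and of the 3 Atp7b probe sets 1 passed. Deletion under CDDO-Im changed the passing Cp probe sets other than the brightest by -0.17 to 0.24, and none was called. The probe set at 0.24 was also 0.24 higher with deletion under vehicle, and its groups overlapped in both. A further Cp probe set, at -0.14 under the drug, also overlapped there. Over the 5 comparisons between pairs of groups and the difference between drug responses, fitted values ran from -0.18 to 0.14 for Mtf1, -0.15 to 0.20 for Slc39a8, -0.27 to 0.56 for Slc39a14, -0.26 to 0.24 for Atp7b and -0.21 to -0.00 for Cp, and none was called.

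**Figure D3:**
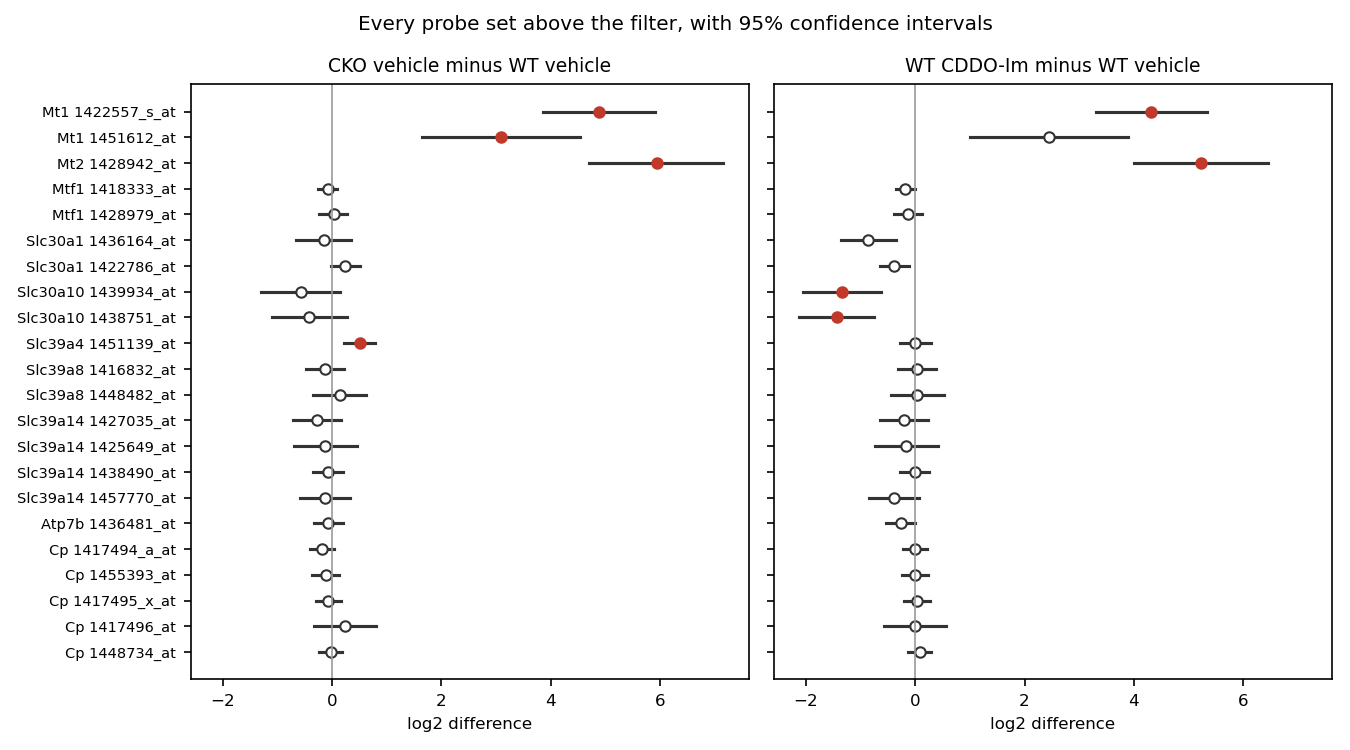
Log2 differences of the probe sets of the 10 genes that passed the filter, by comparison, with filled points for those called over all probe sets. For Mt1 the dim probe set changed by 3.09 and the bright one by 4.89 with deletion under vehicle. The dim one passed the filter only through the groups where it is high, so its filled point is a description and not a test.

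Counted together, 3 of the 10 genes rose and none fell with deletion under vehicle (Mt1, Mt2 and Slc39a4), where 6.51% of all genes were called and 3.25% rose. With CDDO-Im in WT mice 2 rose (Mt1 and Mt2), against 3.65% of all genes called and 1.88% that rose. In CKO mice CDDO-Im gave 0 calls among the 10 and 0 among all genes by limma (0%), with 2 of the 10 and 790 of all genes (9.47%) at an unadjusted p under 0.05. With deletion in drug-treated mice 1 of the 10 was called (Slc39a4, higher), against 1.54% of all genes called and 0.744% higher. Between CKO vehicle and WT CDDO-Im none of the 10 was called by limma, against 4.29% of all genes, with 3 of the 10 and 23% of all genes at an unadjusted p under 0.05. The drug response differed between genotypes for 2 of the 10 (Mt1 and Mt2), against 0.276% of all genes, 0.252% with a smaller value in CKO mice. Groups did not overlap for 3 of the 10 with deletion under vehicle (26.3% of all genes), 5 with the drug in WT mice (23.3%), 2 with the drug in CKO mice (14.6%), 3 with deletion under the drug (22.7%) and 3 between CKO vehicle and WT CDDO-Im (27.8%). The median change of the 10 genes, beside that of all genes, was -0.10 against -0.01 with deletion under vehicle, -0.09 against -0.02 with the drug in WT mice, 0.09 against -0.02 with the drug in CKO mice, 0.13 against -0.01 with deletion under the drug, 0.35 against 0.01 between CKO vehicle and WT CDDO-Im, and 0.16 against 0.00 for the difference between drug responses.

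**Figure D4:**
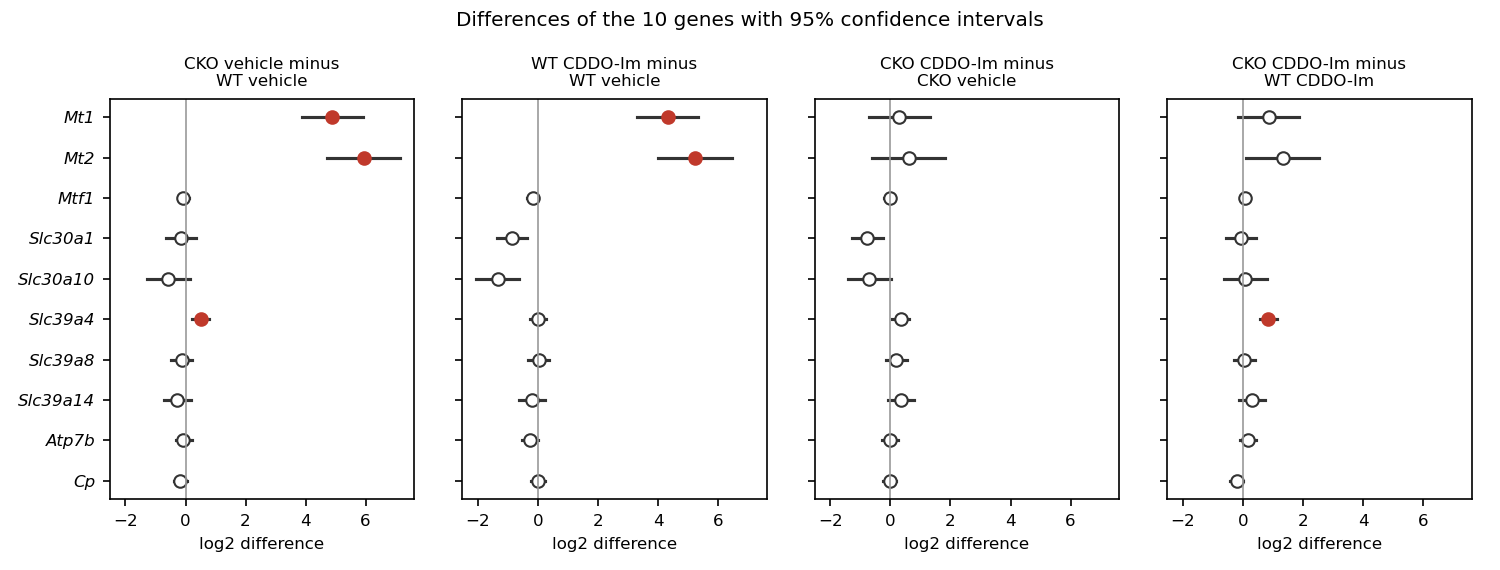
Log2 differences (horizontal axes) of the 10 genes in 4 comparisons, with 95% confidence intervals from limma and filled points for adjusted p under 0.05. Mt1 and Mt2 are filled in the deletion and WT drug panels, at 4.89 and 5.94 and at 4.32 and 5.23, and Slc39a4 in both deletion panels.

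Of 19 other zinc transporters, 12 were tested. Of all genes, 6.51% were called with deletion under vehicle and 3.65% with CDDO-Im in WT mice. A single call among 12 genes is near such shares. With deletion under vehicle, 1 fell and none rose: Slc39a10, a zinc importer, read 7.31, 7.41 and 7.46 in WT vehicle and 6.27, 6.70 and 5.86 in CKO vehicle, a change of -1.12 ± 0.26 (limma, adjusted p = 0.0313). With CDDO-Im in WT mice, 1 fell and none rose: Slc30a6, a member of the SLC30 family, changed by -0.36 ± 0.08 (adjusted p = 0.0393). With 1 liver left out, Slc39a10 passed in 7 of 12 fits (adjusted p up to 0.0948; lost without any WT vehicle liver and without CKO vehicle replicate 3 or 5) and Slc30a6 in 5 of 12 (adjusted p up to 0.111). None of the 12 was called in the other comparisons between pairs of groups, the largest change there being 0.71 for Slc39a10 with CDDO-Im in CKO mice (limma, adjusted p = 0.488). The shares of all genes called were 0% with the drug in CKO mice, 1.54% with deletion under the drug and 4.29% between CKO vehicle and WT CDDO-Im. In the added averages, Slc30a6 fell with the drug (-0.26 ± 0.06; adjusted p = 0.0436) and Slc39a11 rose with deletion (0.29 ± 0.07; adjusted p = 0.0217). These averages called 2.46% and 10.6% of all genes, in that order.

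Of 15 other genes of copper handling, 12 were tested. Heph, a copper ferroxidase related to ceruloplasmin, read 2.57, 2.52 and 2.64 in WT vehicle, 5.92, 5.38 and 5.71 in CKO vehicle, 2.53, 2.59 and 3.23 in WT CDDO-Im and 5.48, 5.34 and 4.16 in CKO CDDO-Im. All CKO livers read above all WT livers. Its group means were 2.57 in WT vehicle, 2.78 in WT CDDO-Im, 5.67 in CKO vehicle and 4.99 in CKO CDDO-Im. It entered the genes tested only through CKO livers, so this is a description, with no test. Atox1, the chaperone that brings copper to ATP7B, was 0.65 ± 0.19 higher with deletion under vehicle, which did not pass (adjusted p = 0.0735). It was 0.90 ± 0.19 higher in CKO vehicle than in WT CDDO-Im (limma, adjusted p = 0.0312), among 4.29% of all genes called. This call passed in 7 of 12 fits with 1 liver left out. The drug changed none of the 12 past the test in either genotype, where 3.65% of all genes were called in WT mice and 0% in CKO mice.

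**Figure D5:**
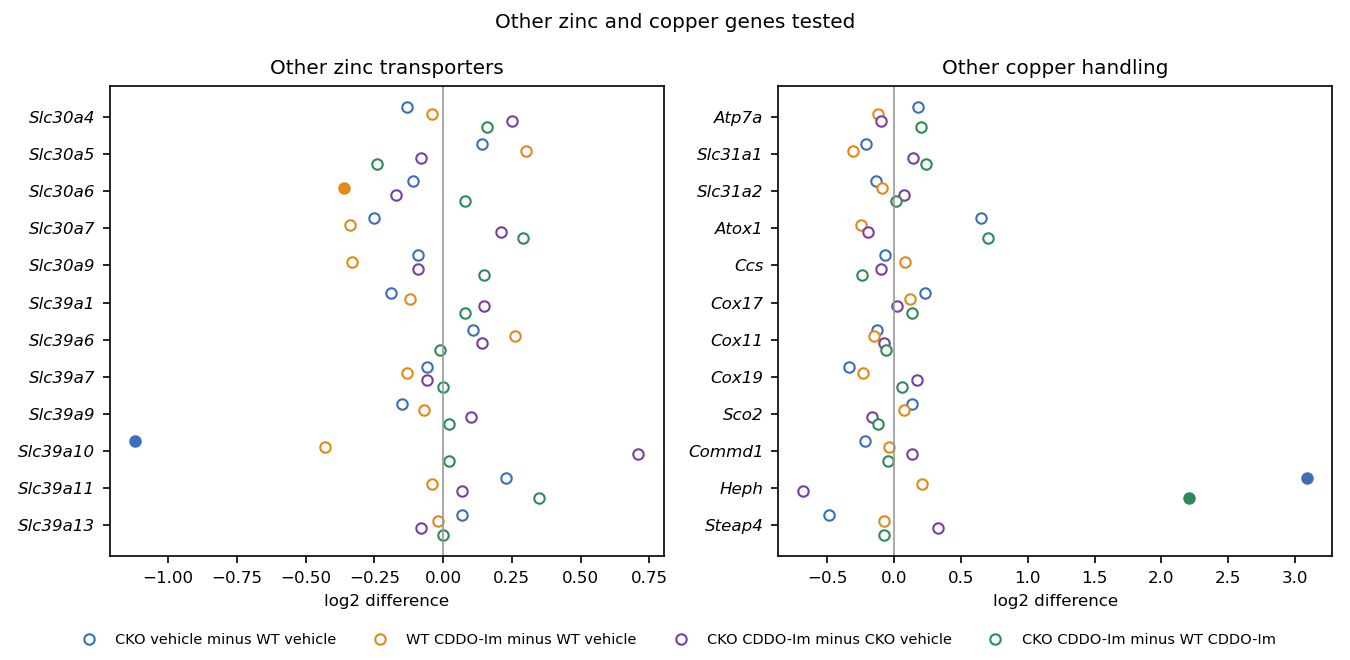
Log2 differences (horizontal axes) of 12 other zinc transporters and 12 other genes of copper handling in 4 comparisons, with filled points for adjusted p under 0.05. Filled points are Slc39a10 and Slc30a6 among the transporters and Heph among the copper genes, at 3.09 and 2.21. Heph entered the genes tested only through the CKO livers, so its filled points are a description and not a test.

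Of 7 listed neighbours of Mt1 and Mt2 on chromosome 8, 2 were tested and neither was called in any comparison. The shares of all genes called ran from 0% to 10.6% over the comparisons. Mt3 and Mt4, the metallothioneins of brain and squamous epithelium, were at 2.24 and 2.22 in all livers. Deletion under vehicle changed Nup93 and Ogfod1, the neighbours tested, by 0.15 ± 0.21 and 0.14 ± 0.09 (limma, adjusted p = 0.725 and 0.42). Of 5 reported MTF-1 targets outside the 10 genes, Gclc rose, 2.21-fold with deletion (limma, adjusted p = 3.11e-04) and 2.83-fold with the drug in WT mice (adjusted p = 3.33e-04), and Slc39a10 fell with deletion. Beside these, 6.51% of all genes were called with deletion and 3.65% with the drug. Gclc, the catalytic subunit of glutamate-cysteine ligase, is also a known Nrf2 target.

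Metallothioneins also respond to inflammation, glucocorticoids and heat, so lists of such genes were read beside them, and the part of these responses in the metallothionein values was not tested. Of 20 acute phase genes tested, 1 rose with deletion under vehicle, Orm3 (2.49 ± 0.42; limma, adjusted p = 0.00776), and none with the drug in WT mice. These counts are near the shares of all genes that rose, 3.25% with deletion and 1.88% with the drug. The median change of the 20 was 0.03 with deletion and 0.11 with the drug. Groups did not overlap for 5 and 2 of the 20, against 26.3% and 23.3% of all genes. CKO vehicle replicate 3 read 15.90 for Saa2, 12.95 for Saa3 and 13.35 for Lcn2, the highest of all livers, and was also the highest of its group for Mt1 and Mt2. Without this liver, Mt1 and Mt2 were called higher with deletion under vehicle (limma, adjusted p = 0.0029 and 0.00269). Leaving out 1 liver does not test the part of the acute phase response in the other livers. The 10 glucocorticoid-responsive genes tested had a median change of 0.46 with deletion under vehicle and 0.76 with the drug in WT mice, against -0.01 and -0.02 for all genes. Groups did not overlap for 3 of the 10 in each, near the shares of all genes given above. Of the 10, Fkbp5 rose with deletion (1.59 ± 0.33; limma, adjusted p = 0.0189) and with the drug in WT mice (1.57 ± 0.33; adjusted p = 0.0312). No other of the 10 was called in either, where 3.25% and 1.88% of all genes rose. Zbtb16 was 3.00 ± 0.75 higher with the drug in WT mice and did not pass (adjusted p = 0.0571). With 1 liver left out, the Fkbp5 calls passed in 10 of 12 fits for deletion (lost without WT vehicle replicate 3 or CKO vehicle replicate 3) and in 7 of 12 for the drug. Of 6 heat shock genes none was called in either, the largest change being -0.95 ± 0.52 for Hspb1 with deletion (limma, adjusted p = 0.322). Among all genes, 6.51% were called with deletion and 3.65% with the drug.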

How the data were processed

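Liver RNA of 12 mice (4 groups of 3) was measured on Affymetrix mouse arrays. The authors deposited log2 values, and the submitters' processing notes name GCRMA 2.12.1 and R 2.7.0 as the tools, with no settings. GCRMA models probe background, so changes from the lowest values depend on it, and a linear fold is printed if neither group mean was under 5. The number of arrays limits the precision. Probe sets naming 1 gene (34945 of 45101) were used, the brightest for each gene, and genes with at least 3 arrays above log2 5 were tested. A model of 4 group means over all 12 arrays was fitted with limma 3.58.1 in R 4.3.3 (two-sided, Benjamini-Hochberg over 8338 genes, called under an adjusted p of 0.05), and again over 14684 probe sets. The script was tested on simulated data. There were 6 comparisons; the 2 averaged over genotype or treatment were added after the values had been seen. All 10 genes are reported, those with small differences as ranges over the comparisons, and from the pathway lists called genes, at most 3 each way, or the largest change; genes outside this rule (Saa2, Saa3, Lcn2, Zbtb16, Nup93, Ogfod1, Mt3, Mt4 and the single cell type markers) were chosen after their values were seen. Members and lists were chosen with earlier results of these data known. Promoter sequences are from RefSeq. Alternatives were other normalization, filters, limma settings, probe sets, a replicate block and leaving out each liver.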

Additional observations from a re-analysis of the deposited data

Results flagged for a closer look

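The drug response of both metallothioneins differed between genotypes by the test of that difference itself. CDDO-Im in CKO mice minus CDDO-Im in WT mice was -4.03 on the log2 scale for Mt1 and -4.62 for Mt2. Both values passed the threshold narrowly. With 1 liver left out, the test was passed in 2 of 12 fits for Mt1 and 3 of 12 for Mt2.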

How the results depend on the processing

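Over every gene tried, no difference that had passed the test changed sign under any alternative run. The rises of Mt1 and Mt2 with deletion under vehicle and with CDDO-Im in WT mice passed in all 12 fits that left out 1 liver (adjusted p up to 0.0029 and 0.00269 for deletion without CKO vehicle replicate 3, and 0.00791 and 0.00725 for the drug without WT CDDO-Im replicate 4). Of the 10 genes, the number called with 1 liver left out ran from 2 to 3 for deletion under vehicle, 2 to 3 for the drug in WT mice, 0 to 0 for the drug in CKO mice, 0 to 1 for deletion under CDDO-Im (0 without WT CDDO-Im replicate 3), 0 to 1 for CKO vehicle against WT CDDO-Im, 0 to 2 for the difference between drug responses, 2 to 4 for the averaged drug effect and 3 to 3 for averaged deletion. Over all genes, these fits called 275 to 538 against 543 in the same order, 100 to 318 against 304, 0 to 1 against 0, 32 to 138 against 128, 108 to 379 against 358, 2 to 30 against 23, 97 to 258 against 205, and 569 to 807 against 880.

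Without the filter on low signal, which raises the number of genes adjusted over, the counts over all genes were 232, 124, 1, 29, 119, 7, 67 and 413. Of the 10 genes, 0 were then called for deletion under CDDO-Im, 0 for the difference between drug responses (Mt1 adjusted p = 0.185, Mt2 0.219) and 2 for the averaged drug effect. Fitted on only the groups compared, deletion under vehicle gave 223 genes, the drug in WT mice 85, deletion under CDDO-Im 56 with 0 of the 10, and CKO vehicle against WT CDDO-Im 112 with 1 of the 10. The last comparison also gave 1 of the 10, Slc39a4, with quantile normalization, with a minimum of log2 7 and with limma-trend and robust variance moderation together. The Slc39a4 rise under vehicle missed the threshold with median centring (adjusted p = 0.0521). Slc30a10 passed for the drug in WT mice with a minimum of log2 7 (adjusted p = 0.0382), limma-trend and robust variance moderation together (0.0408) or repeated values left out (0.0422). Rises made up 51.6% of the genes called for the drug in WT mice, 58.3% with quantile normalization and 62.4% with median centring; for CKO vehicle against WT CDDO-Im the shares were 56.4%, 51.6% and 41%, and for the averaged drug effect 48.8%, 59.2% and 68.7%.

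The labels do not say whether equal mouse numbers mark paired mice. Deviations of same-numbered mice correlated between -0.166 and 0.146 over 12 pairs (median 0.0602). Those of different-numbered mice correlated between -0.251 and 0.253 over 42 pairs (median 0.00697). Correlations this weak cannot settle whether mice were paired. A fit with the replicate number as a block, which leaves 4 residual degrees of freedom in place of 8, called 55 genes for deletion under vehicle with 1 of the 10 (Mt1; Mt2 adjusted p = 0.0524), 114 for the drug in WT mice, 2 for the drug in CKO mice, 42 for deletion under CDDO-Im with 0 of the 10, 150 for CKO vehicle against WT CDDO-Im, 3 for the difference between drug responses with 0 of the 10, and 316 for averaged deletion. Under the block the averaged drug effect held 1 of the 10 (Mt1). WT vehicle held numbers 1, 2 and 3 and CKO vehicle 3, 4 and 5, so the block fit compares these groups with little overlap.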
